A study of Mus musculus with 4 samples.

Results

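The respiratory chain and ATP synthase genes described here are the nuclear genes whose symbol begins with Nduf, Uqcr, Atp5 or Cox followed by 4 to 8, with Sdha, Sdhb, Sdhc, Sdhd, Cyc1 and Cycs added. The array annotation named 92 of them through probe sets that carry 1 gene, among 18193 genes named in this way. They comprise 34 subunit genes of complex I, 8 assembly factors of complex I, 4 genes of complex II, 9 of complex III, cytochrome c (Cycs), 19 of complex IV and 17 of complex V. Of the 92 genes, 86 had values of 4 or more log2 units on 2 or more of the 4 arrays, of either genotype, and were tested. The remaining members were Ndufb4, Cox4i2, Cox6a2, Cox6b2, Cox7b2 and Cox8c.

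Adrenal glands came from male mice at 2 months of age, and RNA of 2 wild-type and 2 V1a KO samples was read on 1 short-oligonucleotide array each. V1a KO mice lack the V1a vasopressin receptor, which signals through Gq and calcium. The labels do not give the strain, the allele or whether the glands of 1 sample came from 1 animal, so p-values measure only how far these samples spread, and that spread may be technical. The values are log2 expression as deposited, and each difference is knockout minus wild type with n = 2 per genotype.

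The respiratory chain sits in the inner mitochondrial membrane. Complexes I and II take electrons from NADH and succinate, complex III passes them to cytochrome c, and complex IV hands them to oxygen. Complexes I, III and IV pump protons, and complex V, the ATP synthase, uses the proton gradient to make ATP. Complex II is also an enzyme of the citric acid cycle. In the adrenal cortex, mitochondria house the first and last steps of corticosteroid synthesis as well.

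Most genes of complexes I, III, IV and V read lower in the knockout samples, by small amounts, while the 4 genes of complex II had a median near 0 whose sign depended on which wild-type array entered. Of the 86 tested genes, 67 had a lower mean in the knockout and 19 a higher one. The 2 genotypes did not overlap in 54 genes: both knockout arrays lay below both wild-type arrays in 50 (58.1%) and above them in 4 (4.65%). Over all 10110 tested genes, the same pattern was read in 20.5% for lower and 17.1% for higher, and 56% had a lower mean. The members were brighter, with a median level of 11.44 against 7.34 for all tested genes. At or above the lower quartile of member levels there were 684 tested genes, members included. Of these, 380 had a lower mean, with 186 lower and 134 higher without overlap. The median difference of the 86 genes was -0.29 log2 units, beside -0.05 for all tested genes. None of the 86 passed an adjusted p of 0.05 in limma, where 0% of all genes passed, and the smallest adjusted p among them was 0.794. At an unadjusted p under 0.05, 9 members (10.5%) lay lower and 0 higher, against 2.93% and 2.14% of all tested genes, or 5.06% in either direction. The count depended on which arrays entered. Without wild-type array 1 it was 13 lower and 2 higher, where 5.14% and 6.91% of all genes lay lower and higher. Without wild-type array 2 it was 45 and 8, where all genes gave 23.6% and 14.5%. Without knockout array 1 it was 0 lower (0.425% of all genes), and without knockout array 2 it was 1 (0.772%).

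By complex, the median difference was -0.29 in complex I (26 of 33 lower), -0.34 in complex III (8 of 9), -0.26 in complex IV (13 of 14) and -0.32 in complex V (14 of 17). In complex II it was 0.08, with 1 of 4 genes lower, and in the assembly factors of complex I it was -0.15, with 5 of 8 lower. Differences between complexes were not tested. A set of 18 genes had a median of -0.16, with both knockout arrays lowest in 8. It held the subunits that carry out catalysis or hold the electron carriers, Cycs, the core proteins Uqcrc1 and Uqcrc2, and Atp5c1 of the rotating shaft. The other subunits of the 5 complexes had a median of -0.33 over 60 genes, with both knockout arrays lowest in 39. Over all tested genes both knockout arrays lay lowest in 20.5%, and the contrast between these sets was not tested.

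**Figure D1:**
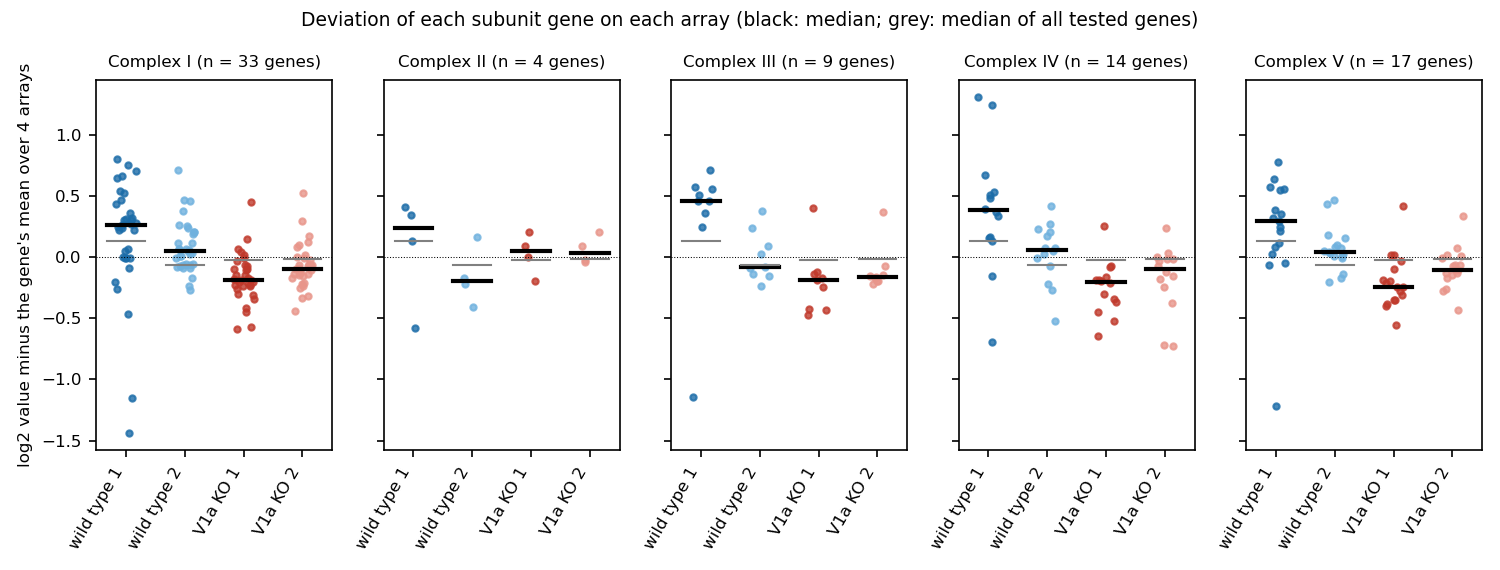
Each point is 1 tested gene on 1 array, as its log2 value minus its own mean over the 4 arrays, by complex; black lines are medians of the complex and grey lines those of all tested genes. Medians on wild-type array 1 were 0.26, 0.24, 0.46, 0.38 and 0.30 for complexes I to V, and those on the knockout arrays lay below 0 in each complex but II.

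The arrays of 1 genotype also differed. Wild-type array 1 was the highest of the 4 in 60 of the 86 genes (69.8%, against 49.8% of all genes), and knockout array 1 the lowest in 52 (60.5%, against 24.3%). The median gap between the 2 wild-type arrays was 0.26, about as large as the median difference between genotypes. Over all tested genes that gap was 0.20 and the median difference between genotypes -0.05. Wild-type array 1 stood apart over all tested probe sets, with correlations of 0.919 to 0.924 with the other arrays, which correlated with each other at 0.974 to 0.986. Without it the median of the 86 genes was -0.15, beside 0.04 for all genes, and both knockout arrays lay below wild-type array 2 in 62 of 86 (72.1%), against 31.9% of all genes. Without wild-type array 2 the median was -0.44, beside -0.15 for all genes. Per complex, the medians without wild-type array 1 were -0.15, 0.16, -0.05, -0.22 and -0.17 for complexes I to V. The lower reading of complex III thus shrank from -0.34 to -0.05 on leaving out this 1 array, and without wild-type array 2 it was -0.69. The median of complex II without wild-type array 2 was -0.20, so that its sign turned.

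Complex I joins a core that carries flavin and iron-sulphur clusters to a large set of accessory subunits. Ndufa12, an accessory subunit of the matrix arm, read 12.80 and 12.20 in wild type against 11.43 and 11.56 in the knockout. The difference was -1.01 (SE 0.27, unadjusted p = 0.0234 and adjusted p = 0.794 in limma), whereas its other tested probe sets gave -0.18 and 0.07. Ndufa6, another accessory subunit, read 11.87 and 11.59 in wild type against 10.74 and 11.11 in the knockout, which differed by -0.80 (SE 0.23). Both genes thus had non-overlapping genotypes, with the knockout at about the same distance below wild-type array 2, by -0.71 and -0.66. Ndufs4, an accessory subunit whose loss causes mitochondrial disease in mice and humans, read 9.80 and 9.72 against 9.17 and 9.24. Its difference of -0.55 (SE 0.16) was several times the SDs within the genotypes, 0.06 and 0.05, and its other tested probe sets gave 0.12 and -0.15. These were the 3 complex I subunits at an unadjusted p under 0.05, and the 3 had an adjusted p of 0.794 in limma.

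The 6 core genes of complex I had a median of -0.23, and the other 27 tested subunits of complex I had -0.30; this difference was not tested. Ndufv1, which binds NADH and flavin, read 11.45 and 11.14 in wild type against 11.01 on each knockout array, a difference of -0.29 (SE 0.19). Its partner Ndufv2 differed by -0.15 (SE 0.19), and Ndufs1, the subunit with the most iron-sulphur clusters, by -0.17 (SE 0.19). Ndufs3 and Ndufs7, which sit in the part that reduces ubiquinone, differed by -0.37 (SE 0.26) and -0.32 (SE 0.17). Ndufs8, an iron-sulphur subunit, differed by -0.07 (SE 0.16) on its brightest probe set and by -0.68 to -0.33 on the other 4 tested ones. All 6 core genes had a lower mean in the knockout, against 56% of all tested genes. In 5 of them both knockout arrays lay below both wild-type arrays (15 of 27 among the other subunits, 20.5% of all tested genes). The smallest unadjusted p of the 6 in limma was 0.145.

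Among the 7 complex I genes with a higher mean in the knockout, those with the smallest p were Ndufb6 at 0.97, Ndufb10 at 0.19 and Ndufb5 at 0.21. Ndufb10, a membrane-arm subunit, read 10.93 and 11.14 in wild type against 11.20 and 11.26 in the knockout, the 1 complex I gene with both knockout arrays on top. Ndufb6 read 10.43 on wild-type array 1, where the remaining arrays gave 12.31 to 12.39. Its difference therefore rests on that array.

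The assembly factors of complex I build the enzyme without staying in it. Ndufaf8, which works with Ndufaf5, read 10.50 and 10.37 in wild type against 9.77 and 9.87 in the knockout, which differed by -0.62 (SE 0.16). Ndufaf5, which hydroxylates an arginine of Ndufs7, read 7.17 and 6.77 against 6.31 and 6.39, also a difference of -0.62 (SE 0.22). Both had non-overlapping genotypes and unadjusted p values of 0.0223 and 0.0483 in limma (adjusted p = 0.794 for both). Ndufaf3 read 9.02 and 8.46 against 8.38 and 8.26, a difference of -0.42 (SE 0.26). Ndufaf1 lay the other way without overlap, at 7.91 and 8.04 in wild type against 8.08 and 8.21 in the knockout, and Ndufaf7 and Ndufaf2 differed by 0.22 and 0.05.

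Complex II, succinate dehydrogenase, has 4 subunits, all encoded in the nucleus. Sdha, the flavin-bearing catalytic subunit, read 11.28 and 10.93 in wild type against 11.15 and 11.24 in the knockout, which differed by 0.09 (SE 0.20). Its other tested probe set, at about the same level, read 11.23 and 11.22 against 10.98 and 11.16 (-0.15, SE 0.17). On that probe set both knockout arrays lay below both wild-type arrays. Sdhb, the iron-sulphur subunit, read 12.31 and 11.73 against 11.71 and 11.86 (-0.24, SE 0.27). The knockout values of Sdhb and of the brightest Sdha probe set lay inside or close to the wild-type range. Sdhc, a membrane anchor, read 9.81 and 10.56 in wild type against 10.60 and 10.59 in the knockout (0.41, SE 0.31), so that its knockout arrays lay 0.04 above wild-type array 2. Sdhd, the other anchor, read 9.52 and 8.76 against 9.27 and 9.15 (0.07, SE 0.32). The other tested probe sets of Sdhc and Sdhd gave 0.09 and 0.13. Without wild-type array 2 the signs of Sdha and Sdhd turned, to -0.09 and -0.31.

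Complex III moves electrons from ubiquinol to cytochrome c. Uqcrq, a small accessory subunit, read 11.21 and 11.00 in wild type against 10.29 and 10.54 in the knockout, which differed by -0.69 (SE 0.20, unadjusted p = 0.0273, adjusted p = 0.794 in limma). Uqcr11 and Uqcr10, also small accessory subunits, differed by -0.59 (SE 0.27) and -0.63 (SE 0.34), and Uqcrb by -0.34 (SE 0.17). In these 4 genes both knockout arrays were below both wild-type arrays on the brightest probe set. The other tested probe set of Uqcrb went the other way without overlap. It read 10.29 and 10.98 in wild type against 11.06 and 11.05 in the knockout (0.42, SE 0.30). The other tested probe sets of Uqcr10 gave -0.11 and -0.39. In the electron carriers and in Uqcrc1 wild-type array 1 stood above the other 3 arrays. Cyc1, the cytochrome c1 subunit, read 12.53 on wild-type array 1 and 11.89, 11.86 and 11.83 on the others. Uqcrfs1, the Rieske iron-sulphur protein, read 11.29 on that array and 10.67, 10.69 and 10.67 on the others, and Uqcrc1, a core protein, 10.83 against 10.04, 10.03 and 10.20. Their differences of -0.37 (SE 0.28), -0.30 (SE 0.27) and -0.32 (SE 0.33) came down to -0.04, 0.01 and 0.07 without wild-type array 1. Uqcrc2, the other core protein, was the 1 complex III gene with a higher mean (0.77, SE 0.58), since it read 10.46 on wild-type array 1 against 11.98, 12.01 and 11.98 on the others. Its other probe set gave -0.26. Uqcr11 and Uqcr10 differed by -0.32 and -0.23 without that array.

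Cytochrome c, the soluble carrier between complexes III and IV, was read by several probe sets that disagreed. The brightest one for Cycs read 10.58 and 12.45 in wild type against 11.69 and 11.89 in the knockout (0.28, SE 0.71). The next read 11.50 and 11.63 against 11.01 and 11.09 (-0.51, SE 0.16). Without wild-type array 1 the first turned to -0.66.

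Complex IV, cytochrome c oxidase, holds small nuclear subunits around a core made in the mitochondrion. Ndufa4, once counted with complex I and now with complex IV, read 11.56 and 11.49 in wild type against 10.55 and 10.70 in the knockout. The difference of -0.90 (SE 0.16, unadjusted p = 0.00670, adjusted p = 0.794 in limma) compares with SDs of 0.05 and 0.10. Cox6c read 12.79 and 12.72 against 12.09 and 12.21 (-0.61, SE 0.16, unadjusted p = 0.0227, adjusted p = 0.794 in limma). These genes separated the genotypes with wild-type arrays that lay close together, and without wild-type array 1 they still differed by -0.86 and -0.57. The other probe set of Cox6c gave 1.02, with wild-type array 1 at 9.30 and the other 3 arrays at 11.76 to 12.27.

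Several complex IV subunits exist as isoforms for different tissues. Cox8b, the isoform of heart, skeletal muscle and brown fat, read 11.33 and 10.07 in wild type against 9.38 and 9.30 in the knockout. Its difference of -1.36 (SE 0.49, unadjusted p = 0.0532, adjusted p = 0.794 in limma) was the largest of the 86 genes, and its wild-type arrays lay 1.26 apart. Without wild-type array 1 it was -0.73, smaller in size than Atp5md at -0.92 and Ndufa4 at -0.86, and without wild-type array 2 it was -1.99. Cox8a, the isoform of most tissues, read 10.26 and 9.72 against 9.38 and 9.55 (-0.52, SE 0.26). Both isoforms were lower on both knockout arrays, and Cox8a differed by -0.25 without wild-type array 1. Cox7a1, the other heart, muscle and brown fat isoform read here, was 8.37 and 7.18 in wild type against 7.51 and 7.73 in the knockout (-0.15, SE 0.47), while Cox7a2, its counterpart in most tissues, was 12.65 and 13.03 against 12.73 and 12.81 (-0.07, SE 0.21). The genotypes overlapped in both.

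Ndufa4l2, a hypoxia-induced relative of Ndufa4, read 8.93 and 7.47 in wild type against 7.38 and 6.96 in the knockout (-1.03, SE 0.58), and the knockout lay -0.30 below wild-type array 2. Among the ubiquitous isoforms, Cox4i1 differed by -0.29 (SE 0.23), Cox6a1 by -0.20 (SE 0.17) and Cox6b1 by -0.18 (SE 0.17), each with both knockout arrays lowest. Their counterparts Cox4i2 (lung) and Cox6a2 (heart and muscle) were at 2.30 to 2.33 on every array, at or next to the floor of the scale at 2.30. The testis isoforms Cox7b2 and Cox8c were at 2.30 on every array, and Cox6b2, also a testis isoform, read 3.71 to 4.45. Cox7a2l, a supercomplex factor, differed by -0.23 (SE 0.32). Cox5a was the 1 complex IV gene with a higher mean (0.49, SE 0.36), from 11.20 on wild-type array 1 against 12.10 to 12.15 on the others.

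**Figure D2:**
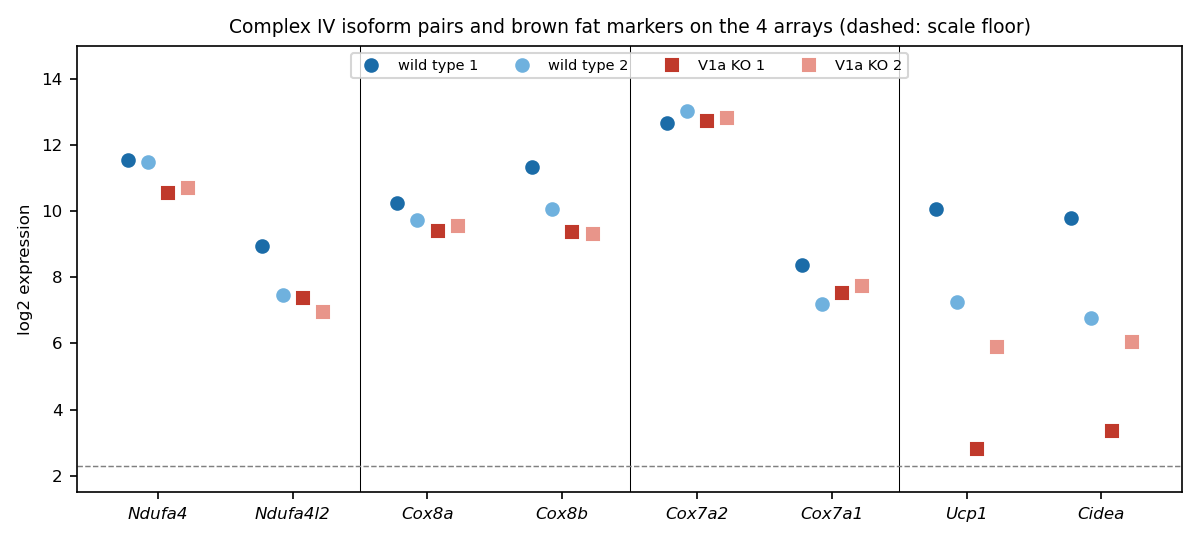
Log2 expression on each of the 4 arrays for 3 isoform pairs of complex IV and for the brown fat markers Ucp1 and Cidea; circles are wild type, squares are knockout, and the dashed line is the floor of the scale at 2.30. Both knockout arrays lie lowest for Ndufa4, Ndufa4l2, Cox8a, Cox8b, Ucp1 and Cidea, and the genotypes overlap for Cox7a1 and Cox7a2.

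Complex V couples a rotor in the membrane to a catalytic head. Atp5md, a small membrane subunit also called DAPIT, had the smallest p of all members. It read 12.21 and 12.09 in wild type against 11.10 and 11.23 in the knockout, and the difference was -0.98 (SE 0.17, unadjusted p = 0.00515, adjusted p = 0.794 in limma). The SD was 0.09 in each genotype, and the difference was -0.92 without wild-type array 1. Atp5l and Atp5e, subunits of the membrane part and the central stalk, differed by -0.63 (SE 0.25) and -0.65 (SE 0.28). The values of Atp5l were 12.20 and 11.68 against 11.27 and 11.35, and those of Atp5e 11.88 and 11.25 against 10.86 and 10.98. Both genes had non-overlapping genotypes, and without wild-type array 1 they differed by -0.37 and -0.33.

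The alpha, beta and gamma subunits of the head and shaft differed by -0.32 to 0.09. Atp5b, the beta subunit that holds the active sites, read 12.80 and 12.55 against 12.74 and 12.80 (0.09, SE 0.18). Atp5a1, the alpha subunit, read 12.51 and 12.56 against 12.39 and 12.48 (-0.10, SE 0.16), and Atp5c1, the gamma subunit of the rotating shaft, 12.70 and 12.39 against 12.19 and 12.26 (-0.32, SE 0.19). The 3 genes for the c subunit of the rotor ring, which encode the same mature protein, did not go together. Atp5g1 and Atp5g2 differed by -0.42 (SE 0.21) and -0.39 (SE 0.19) without overlap, and Atp5g3 by 0.03 (SE 0.16), with readings of 12.71 and 12.78 against 12.78 and 12.77. Atp5pb, a stator subunit, lay higher at 0.75 (SE 0.64), from 11.15 on wild-type array 1, where the remaining arrays gave 12.70 to 12.83.

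**Figure D3:**
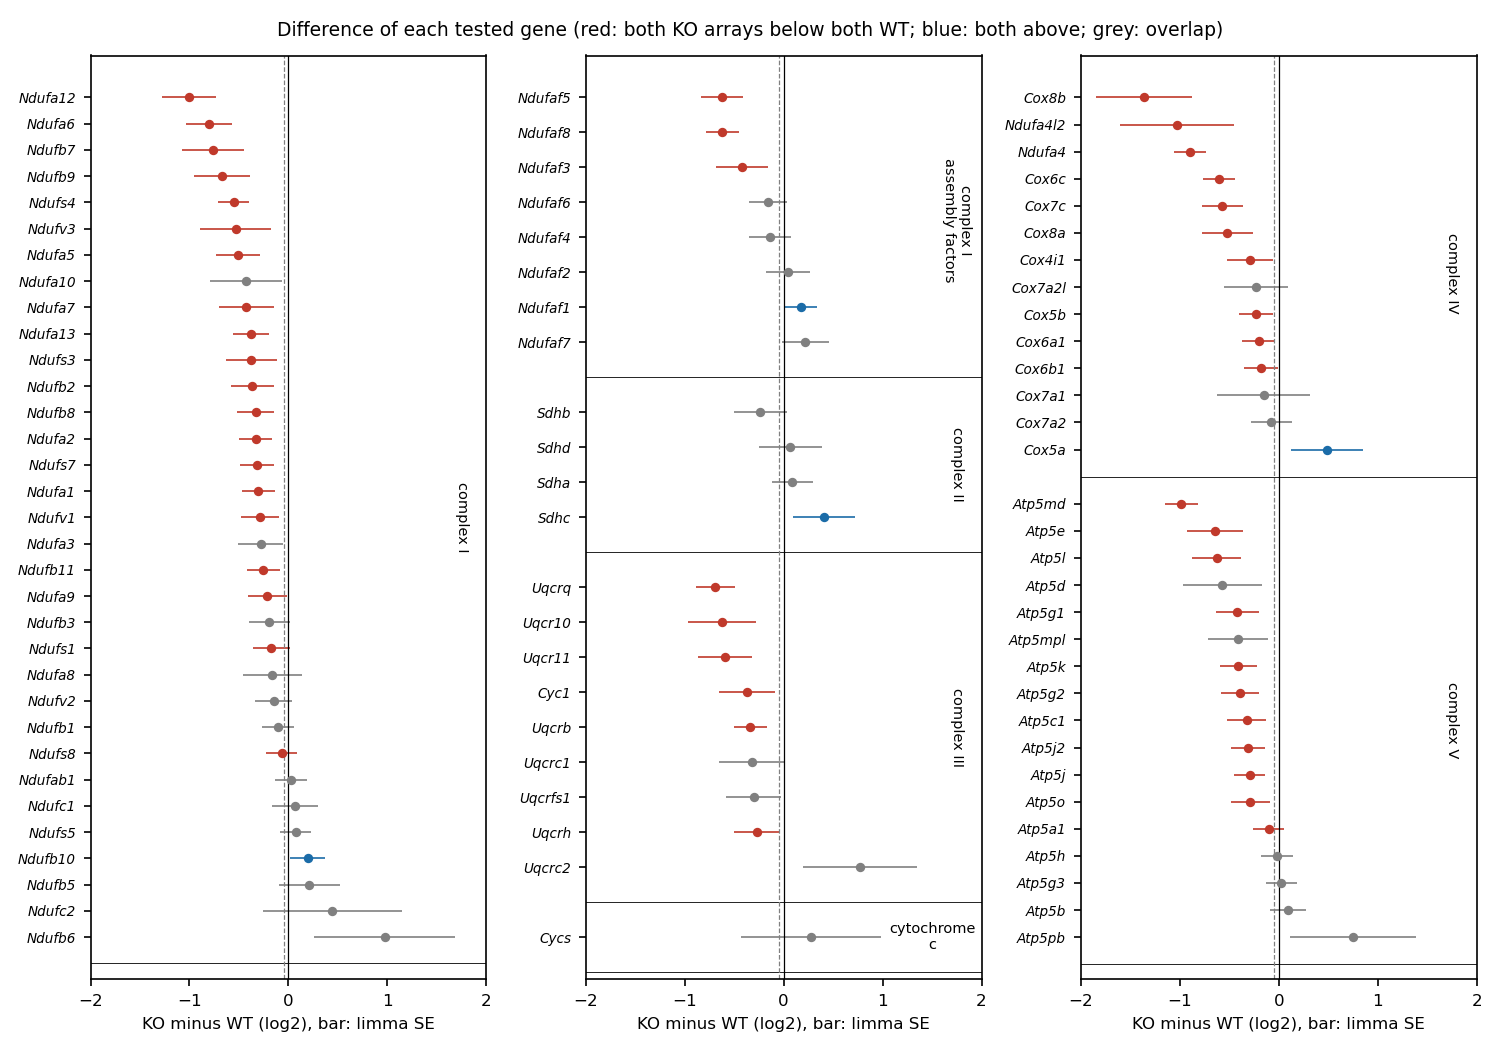
Difference of each of the 86 tested genes, knockout minus wild type in log2 units, with limma's SE as bars; red marks genes with both knockout arrays below both wild-type arrays (50), blue both above (4) and grey an overlap, and the dashed line is the median of all tested genes (-0.05). The largest difference is that of Cox8b at -1.36, and the complex II genes lie between -0.24 and 0.41.

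Genes outside the rule were counted to see whether other mitochondrial transcripts shared the direction. In the citric acid cycle, 12 of 13 genes were tested, of which 5 lay lower and 7 higher, with a median of 0.02 and 0 at an unadjusted p under 0.05 in limma. Cs, which condenses acetyl-CoA with oxaloacetate, read 11.37 and 11.40 in wild type against 11.38 and 11.41 in the knockout. Among inner and outer membrane carriers and uncouplers, 7 of 9 were tested, with 4 lower and 3 higher and a median of -0.01. Slc25a3, which brings phosphate to the ATP synthase, differed by 0.02, Slc25a4 and Slc25a5, which exchange ADP and ATP, by -0.01 each, and the porin Vdac1 by -0.02. The factors that assemble complexes II to V had 16 of 24 tested genes lower, a median of -0.15 and 11 genes with both knockout arrays lowest. Of these Sdhaf3, a complex II assembly factor, was at an unadjusted p of 0.0302 in limma (-0.55, SE 0.16, adjusted p = 0.794). Over all tested genes, 56% had a lower mean, and 5.06% were at an unadjusted p under 0.05 in limma. Both knockout arrays were lowest in 20.5% of all tested genes and on top in 17.1%. Regulators of mitochondrial gene expression had 4 of 10 tested genes lower and a median of 0.14. In 4 of them both knockout arrays were on top and in 0 both were lowest. Among these, Gabpa, a subunit of an ETS factor that binds promoters of respiratory genes, read 6.57 and 7.85 against 8.18 and 8.01. Tfam, which packs mitochondrial DNA and takes part in its transcription, read 8.64 and 8.78 against 8.94 and 9.04. ND5, a complex I subunit encoded in mitochondrial DNA and named here after its values were seen, read 13.33 and 14.33 in wild type against 13.95 and 13.92 in the knockout.

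The arrays differed in brown fat transcripts in the same order as in many subunit genes. In 38 of the 86 genes (44.2%) wild-type array 1 was highest, followed by wild-type array 2, knockout array 2 and knockout array 1, an order looked for after the values were seen and held by 9.3% of all tested genes. It occurred in 15 genes of complex I, 4 of complex III, 8 of complex IV, 9 of complex V and 0 of complex II. The brown fat marker Ucp1, the uncoupling protein of thermogenesis, read 10.05 and 7.24 in wild type against 2.80 and 5.91 in the knockout. Cidea, a lipid droplet protein of brown fat, read 9.78 and 6.78 against 3.37 and 6.06, so that both had that order. The other named brown fat markers, Elovl3, Dio2 and Ppargc1a, lay below the filter, and the mean over the 5 was 5.98 and 4.30 in wild type against 2.69 and 3.92 in the knockout. Cox8b and Cox7a1, the isoforms of heart, muscle and brown fat, did not hold the order of Ucp1 and Cidea. Cox8b read 9.38 on knockout array 1 and 9.30 on knockout array 2. Cox7a1 read 7.18 on wild-type array 2, below 7.51 and 7.73 in the knockout. Brown fat is rich in mitochondria, and its part in the lower readings of the subunit genes, Cox8b included, was not tested.

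Markers of general fat did not follow that order: the mean of 4 white fat genes was 7.80 and 7.41 in wild type against 7.02 and 8.42 in the knockout. Liver markers had means of 7.19 and 3.35 in wild type and of 2.46 and 2.48 in the knockout. The 1 tested liver marker, Serpina1b, read 7.97 and 7.20 in wild type and was at the floor of 2.30 on each knockout array (-5.28, SE 0.32, unadjusted p = 0.000128, adjusted p = 0.245 in limma), while Alb and Ttr were high on wild-type array 1 alone, at 8.86 and 8.95. The part of liver transcripts in the readings of the subunit genes was not tested. Muscle markers, of which 1 of 7 passed the filter, had means of 2.77 to 2.91, with Ckm, Myh4 and Tnnt3 near the floor, and the 3 testis markers were at 2.31 to 2.40. Adrenal cortex markers had means of 12.56 and 12.56 in wild type against 12.56 and 12.47 in the knockout, and all 8 passed the filter. Chromaffin cell markers had means of 12.38 and 11.56 against 12.19 and 11.32. Among smooth muscle and pericyte markers 3 of 5 were tested, with Acta2 at -0.72, Des at -0.46 and Rgs5 at 0.52. In whole glands, fewer cells of a type cannot be told apart from less RNA per cell.

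Signs of RNA quality overlapped between the genotypes. The control probe sets for Gapdh read higher at the transcript's end than at its beginning by 0.80 and 0.60 in wild type and by 0.39 and 0.63 in the knockout. For Actb the gap was 2.12 and 2.46 against 2.19 and 2.63. Their part in the differences was not tested.

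Probe sets for the same gene sometimes disagreed. Of the 44 members with more than 1 tested probe set, 24 were lower on each, 3 higher on each and 17 mixed. Where several agreed, as in Ndufa7, its 5 probe sets differed by -0.43 to -0.19, and the 4 of Cox5b by -0.45 to -0.23. On 9 of the 152 tested member probe sets (5.92%), wild-type array 1 lay more than 1 log2 unit below each other array, as it did on 6.64% of all tested probe sets. For each of the other arrays that share was 0.308% or less. The 9 probe sets belong to Ndufb6, Ndufc2, Ndufaf4, Uqcrc2, Cox5a, Cox6c, Atp5o, Atp5pb and Cycs, and 8 of them have a suffix for probes that may match more than 1 transcript, as do 86 of the 152. Ndufc2 is an example, with 11.11 on wild-type array 1, where the remaining arrays gave 12.41 to 12.98, where another probe set read 12.10 and 11.95 against 11.57 and 11.53 (-0.47, SE 0.16). Subunit genes also have many processed pseudogenes, and a reading may hold signal from close copies. Probe sets shared by several genes were kept out of the counts: those for Ndufb4 and its copies differed by -0.56 and -0.55, that for Ndufa11 by -0.58 and that for Ndufs6 by -0.56. Those for Ndufs5 and Ndufab1 with their pseudogenes differed by 0.90 and 0.11, the former with 9.87 on wild-type array 1 against 11.59 to 11.75 on the others.

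**Figure D4:**
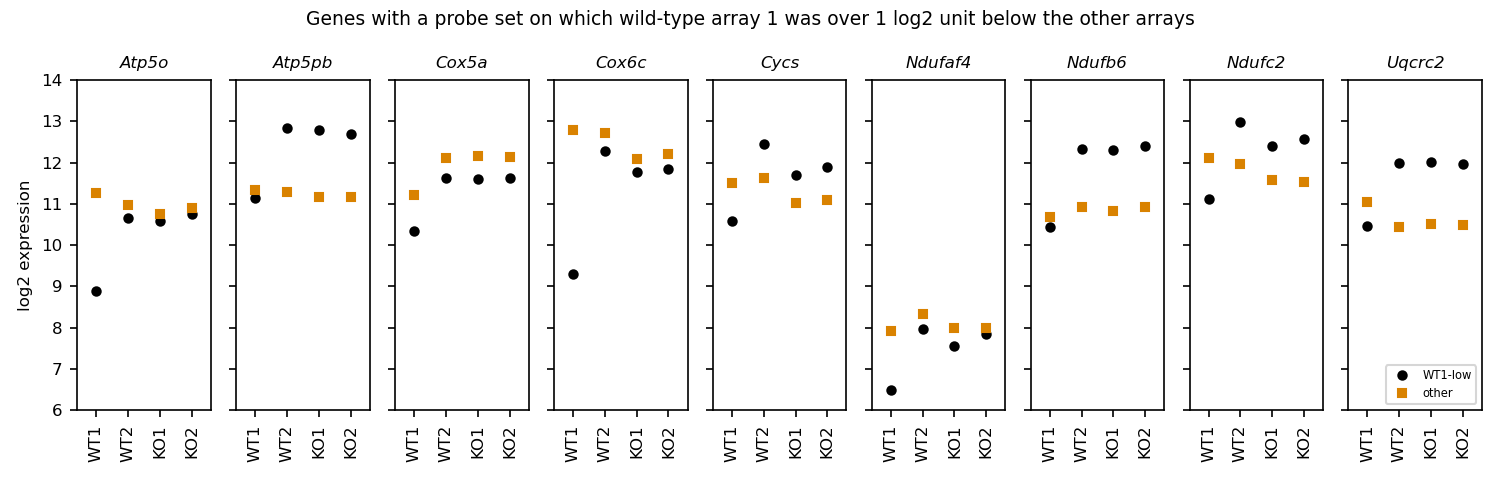
Log2 expression on the 4 arrays for the 9 genes with a probe set on which wild-type array 1 lay more than 1 log2 unit below each other array (black circles), beside the brightest other tested probe set of the gene (orange squares). For Cox6c the black circle of wild-type array 1 is at 9.30 and the orange square at 12.79.

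Promoters of the members, tested or not and whatever their direction, were examined for letters bound by factors known to drive respiratory genes. These were NRF1 (GCGC, any 2 bases, GCGC), GABP (CCGGAAGT) and YY1 (AAGATGGCG followed by GC). Both strands were searched, and no match printed here overlaps another motif. RefSeq windows of GRCm38.p6, from 250 bases before to 50 after a gene's start, were found for 75 of the 92 genes, in 80 windows. The NRF1 letters were in 25% of the members' windows, against 13.8% of the 10642 windows of tested genes and 6.23% of all 32851 windows. The YY1 letters were in 5% against 1.62% and 0.633%, and the GABP letters in 6.25% against 8.16% and 3.89%. Matches are given here in capitals with flanking bases, for the members at an unadjusted p under 0.05 that had one and for 3 further genes of complexes III and IV with GABP letters, to show the letters themselves. All are read on the gene's strand, and in Uqcrh and Cox8a the GABP letters lie on the opposite strand.
Ndufa6 (chr15:82354249-82354278, minus strand, NRF1): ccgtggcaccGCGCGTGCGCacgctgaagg
Ndufaf5 (chr2:140170652-140170681, plus strand, NRF1): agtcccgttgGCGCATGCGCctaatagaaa
Ndufaf8 (chr11:120098935-120098964, plus strand, YY1): gcagggcccAAGATGGCGGCgccctcgaga
Ndufs4 (chr13:114388045-114388074, minus strand, YY1): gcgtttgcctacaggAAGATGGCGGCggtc
Uqcr11 (chr10:80406869-80406898, minus strand, GABP): ttctctcctccCCGGAAGTagatgtcaatg
Uqcrh (chr4:116075063-116075092, minus strand, GABP): gagtatgccgcACTTCCGGccaggtcgccg
Cox8a (chr19:7217604-7217633, minus strand, GABP): atttccgaaatACTTCCGGctcgggcgtcc

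The NRF1 and YY1 matches began 11 to 36 bases after the annotated start, that of Uqcr11 began 66 bases before it, and those of Uqcrh and Cox8a 11 and 6 bases before it. Cox8a held another GABP match that began 32 bases after the start. The members with the 2 smallest p values, Atp5md and Ndufa4, held none of the 3 motifs in their windows, and neither did Ndufa12 and Cox8b. The 150 bases before the start are shown for Atp5md, Ndufa4 and the isoform Cox8b, since these are the genes with the smallest p values and with the largest difference over all 4 arrays. They hold 19 CpG dinucleotides in Atp5md, 8 in Ndufa4 and 1 in Cox8b. A match is only a run of letters, and its lack here says nothing about the factor.
Atp5md (chr19:47090648-47090797, minus strand): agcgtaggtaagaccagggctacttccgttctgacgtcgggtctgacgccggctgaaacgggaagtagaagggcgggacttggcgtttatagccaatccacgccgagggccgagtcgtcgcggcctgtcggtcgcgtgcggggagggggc
Ndufa4 (chr6:11907451-11907600, minus strand): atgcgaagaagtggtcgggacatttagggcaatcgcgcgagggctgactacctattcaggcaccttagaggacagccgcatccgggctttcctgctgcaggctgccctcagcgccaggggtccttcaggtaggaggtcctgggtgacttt
Cox8b (chr7:140900447-140900596, minus strand): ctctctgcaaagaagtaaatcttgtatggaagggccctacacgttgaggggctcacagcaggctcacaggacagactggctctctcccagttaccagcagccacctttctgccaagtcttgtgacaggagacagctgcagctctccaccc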

How the data were processed

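Affymetrix Mouse Genome 430 2.0 arrays were read for 4 adrenal gland samples. Per the labels' protocols, the authors isolated total RNA with TRIzol and mRNA with Oligotex, kept samples with an RNA integrity number of 8.0 to 9.0 and ran GCRMA in Bioconductor 3.14. The deposited values are log2 expression per probe set. The scale was read from the values, 2.30 to 14.9, and GCRMA compresses differences near its floor. Its version is not given in the sources used here.

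Control probe sets were left out. Of 45037 probe sets, 17228 had values of 4 or more on 2 or more of the 4 arrays, and these were fitted in R 4.3.3 by lmFit and eBayes of limma 3.58.1, with genotype as the single term and no trend. Adjusted p-values are Benjamini-Hochberg over these probe sets. Residual degrees of freedom were 2 and prior ones 1.73, and the number of arrays limits the precision. SDs are over the 2 arrays of a genotype. Genes were named from the platform annotation through probe sets with 1 gene, and the brightest tested one on average stood for its gene. All 92 members matched the RefSeq gene table by gene ID, with 0 symbols changed. Named were the catalytic and electron-carrying subunits (with Uqcrc1, Uqcrc2 and Atp5c1) and the tissue isoforms. In each complex and direction the 3 genes with the smallest p were also named. Genes named beyond this rule, such as Uqcr10, Uqcrh, Cox5b, Cox7c, Ndufa7, Ndufc2 and Atp5o, were chosen after their values were seen. Cox7c, among the 50 members with both knockout arrays lowest, read only 3.44 to 4.28, close to the filter at 4. Members and lists were chosen with earlier results of these data known. The fitting script was tested on simulated data.

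Same-numbered arrays of the 2 genotypes deviated from their group means with a correlation of 0.154 across probe sets, and nothing in the labels pairs them. Alternatives were other filters, normalizations and variance priors, plain probe sets, averaged probe sets per gene, a replicate block and leaving out each array.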

Additional observations from a re-analysis of the deposited data

How the results depend on the processing

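None of the 86 genes passed an adjusted p of 0.05 in limma under any alternative run, and their median stayed between -0.44 and -0.15, with -0.26 to -0.34 on leaving out a knockout array. Where a genotype keeps 1 array, its spread is taken from the other genotype. Among all probe sets, 2 passed with a filter at 6 log2 units, quantile normalization, centred arrays or plain probe sets, and 0 otherwise. The count of members with both knockout arrays lowest (50) was 52 to 66 on leaving out each array in turn, where all genes gave 29.8% to 54.3%. This alternative was added after seeing the data. Such a count cannot fall when an array is left out, since fewer arrays then have to be separated. With the replicate number as a replicate block, the median of the 86 genes was -0.29, 0 passed, and 4 in place of 9 lay lower at an unadjusted p under 0.05; the numbers are not known to pair the samples. Without wild-type array 2 that count was 45, where 23.6% of all genes lay lower at that threshold, and without knockout array 1 it was 0. The median of complex IV was -0.61 with plain probe sets only, and leaving out each array moved it from -0.63 to -0.22 and that of complex III from -0.69 to -0.053.

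Of 609 values of the 52 named genes under alternatives, 583 kept their direction and 26, in 18 genes, turned; the cause was not tested. With plain probe sets only, Atp5pb was -0.15, Cox5a -0.22, Cycs -0.10, Ndufb5 -0.31 and Uqcrb 0.42. With probe sets averaged per gene, Cox6c was 0.21, Cycs -0.11, Ndufb5 -0.050, Sdha -0.032 and Uqcrb 0.041. Leaving out each array gave -0.033 to 0.22 for Atp5b, -0.0075 to 0.063 for Atp5g3, -0.092 to 1.59 for Atp5pb, -0.74 to 0.44 for Cox7a1, -0.26 to 0.12 for Cox7a2, -0.62 to 0.16 for Cox7a2l, -0.66 to 1.21 for Cycs, -0.15 to 0.24 for Ndufaf2 and -0.023 to 0.46 for Ndufaf7. It gave -0.15 to 0.57 for Ndufb5, -0.088 to 0.27 for Sdha, -0.53 to 0.057 for Sdhb, -0.31 to 0.44 for Sdhd, -0.71 to 0.073 for Uqcrc1 and -0.61 to 0.0061 for Uqcrfs1.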
